A study of Homo sapiens with 8 samples.

Results

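The genes that carry a cell through mitosis were examined in RCC cells cultured with or without branched-chain amino acids (BCAAs: isoleucine, leucine and valine). The set holds 50 genes, given by symbol, that encode mitotic kinases and cyclins, the kinetochore, the spindle and its motors, and the factors that hold and compact sister chromatids. All 50 were found by Ensembl identifier among the 25431 genes listed for 769-P and among the 24190 listed for CAKI-1. By role, 10 are entry kinases, cyclins and phosphatases, 4 form the chromosomal passenger complex, 12 belong to the kinetochore and its checkpoint, 9 to the spindle and cytokinesis, and 10 to cohesion, condensin and chromosome structure. The remaining 5 are 2 partners of the anaphase-promoting complex, 2 transcription factors and the proliferation marker MKI67.

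769-P and CAKI-1 are established human clear cell renal cell carcinoma lines from ATCC. Total RNA was sequenced from 8 libraries, 2 for each line and condition, after 16 hours in medium supplied with BCAA, or without. The study's figure legend gives a larger n for the RNA-seq than the libraries analysed here. Isoleucine and leucine were each given at 0.38 mM, and valine at 0.17 mM. The study's BCAA-depleted medium was amino acid-free RPMI with dialyzed serum, whereas routine growth was in RPMI for 769-P and in MEM for CAKI-1. Whether the libraries of a condition came from separate cultures is not given in the sources used here, so p-values measure the spread between these libraries, which may be technical. Libraries held between 30979773 and 64256834 reads on listed genes. In 769-P both libraries with BCAA were deeper, at 64256834 and 55829324 reads against 39062721 and 40130258. Replicates of every group differed by more than sampling noise (chi-square per degree of freedom between 3.36 and 12.9), and no 2 libraries were treated as 1. Of the renal carcinoma markers, PAX8, KRT8, KRT18 and VIM were read in both lines, PAX2 only in 769-P, and CA9 was not analysed here. Leukocyte, endothelial and smooth muscle markers had at most 17 reads per gene and library. Together the renal markers summed to between 128294 and 132192 with BCAA and between 136843 and 139198 without in 769-P, and to between 79517 and 82742 against 116840 and 120967 in CAKI-1. Within the list the markers moved in different directions. Both BCAA libraries lay below both without for PAX8 in both lines and for VIM and KRT18 in CAKI-1, and above them for KRT8 in both lines and for PAX2 in 769-P. The part of these shifts in the results was not tested.

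As background, entry into mitosis is driven by CDK1 bound to cyclin A or cyclin B, whose activity is released by the CDC25 phosphatases and reinforced by Polo-like and Aurora kinases. Spindle microtubules attach to chromosomes at the kinetochore, and the spindle checkpoint holds the anaphase-promoting complex inactive until every kinetochore is attached. CDC20 then activates that ubiquitin ligase, securin (PTTG1) is destroyed, and separase (ESPL1) cuts cohesin so that sister chromatids part. Most of these genes are transcribed late in the cell cycle, and many of their promoters carry a cell cycle homology region (CHR) bound by the MuvB complex with MYBL2 or FOXM1, together with CCAAT boxes, whereas genes of the G1/S transition more often carry E2F sites.

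The 4 promoters below are printed because they show CHR and E2F letter matches among entry genes that rose by different amounts. They are RefSeq sequences on GRCh38.p14, from 250 bases before the annotated start to 50 bases from it, with the first base of the transcript as position 0. Capitals mark a match to a CHR, a CCAAT box or an E2F site, each searched on both strands, and none of the marked matches overlap. A CHR was searched by the letters TTTGAA, and also by its other common form, which reads TTCGAA. The CCAAT box was searched by its own name, and a match on the opposite strand is printed as ATTGG. An E2F site was any of the forms TTTCCCGC, then TTTGGCGC, then TTTCGCGC.
CDK1: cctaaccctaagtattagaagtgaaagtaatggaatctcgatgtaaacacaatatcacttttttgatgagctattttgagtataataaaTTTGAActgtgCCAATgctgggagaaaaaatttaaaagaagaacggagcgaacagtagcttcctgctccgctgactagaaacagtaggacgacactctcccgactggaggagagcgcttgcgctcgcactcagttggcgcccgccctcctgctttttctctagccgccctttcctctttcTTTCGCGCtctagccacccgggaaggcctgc
PLK1: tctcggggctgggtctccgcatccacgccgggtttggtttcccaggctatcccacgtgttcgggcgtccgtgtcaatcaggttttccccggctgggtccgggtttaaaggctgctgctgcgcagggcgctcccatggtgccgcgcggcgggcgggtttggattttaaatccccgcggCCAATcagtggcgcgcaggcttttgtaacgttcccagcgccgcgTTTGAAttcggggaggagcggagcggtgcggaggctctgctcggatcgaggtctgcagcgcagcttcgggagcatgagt
CCNB2: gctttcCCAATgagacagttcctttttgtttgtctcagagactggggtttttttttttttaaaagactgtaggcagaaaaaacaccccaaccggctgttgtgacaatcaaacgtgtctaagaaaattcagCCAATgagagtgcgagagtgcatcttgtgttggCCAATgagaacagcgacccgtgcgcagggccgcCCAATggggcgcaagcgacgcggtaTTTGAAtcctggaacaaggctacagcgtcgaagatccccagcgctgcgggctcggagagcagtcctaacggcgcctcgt
CDC25A: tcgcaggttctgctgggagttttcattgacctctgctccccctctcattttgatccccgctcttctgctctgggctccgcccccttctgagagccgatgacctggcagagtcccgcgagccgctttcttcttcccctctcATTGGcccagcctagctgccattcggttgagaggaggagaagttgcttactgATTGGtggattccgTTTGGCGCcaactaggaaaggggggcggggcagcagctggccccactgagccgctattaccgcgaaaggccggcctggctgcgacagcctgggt
The CDK1 promoter (chr10:60778081-60778380, forward strand) held letters that match a CHR at -161, a CCAAT box at -150 and an E2F site at 19. Whether the match at -161 acts as a CHR was not tested. In the PLK1 promoter (chr16:23678639-23678938, forward strand), a CCAAT box lay at -73 and a CHR at -29. The CCNB2 promoter (chr15:59104896-59105195, forward strand) held 4 CCAAT boxes, at -244, -120, -87 and -54, and a CHR at -29, the same distance as in PLK1. The CDC25A promoter (chr3:48188368-48188667, reverse strand) had no CHR match, and held CCAAT boxes on the other strand at -110 and -58 and an E2F site at -44.

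RefSeq promoters were matched for 43 of the 50 genes, with 57 promoters in all. UBE2C, AURKA, BIRC5, TTK, FOXM1, ESCO2 and TPX2 were not matched. A CHR was present in 34 of these 57 promoters (59.65%), against 16.35% of all 35116 promoters of the same length. A CCAAT box was present in 64.91%, against 34.61% of all, and both together in 43.86%, against 6.376%. E2F sites were present in 4 of the 57 (7.018%), against 2.737% of all. Counted by gene, 31 of 43 had a CHR (72.09%), against 19.54% of all 27305 genes with a promoter. An E2F site was present in 3 of 43 (6.977%), against 3.303%. These are matches of letters in a window and not measured binding.

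All 50 genes had both libraries with BCAA above both libraries without in each of the lines. In 769-P, 49 of 50 rose with BCAA (limma on log2(value + 1), Benjamini-Hochberg adjusted p under 0.05 over 22391 genes) and none fell. In CAKI-1, 47 of 50 rose over 21347 genes tested and none fell. Over all genes tested, 20.3% were called higher and 18.2% lower in 769-P, and 10.8% higher and 9.05% lower in CAKI-1. Among genes whose mean value reached 100, a level that every member but SPC25 reached in both lines, 34.1% were called higher in 769-P and 18.7% in CAKI-1. The share of all genes with both BCAA libraries above both without was 33.6% in 769-P and 28.9% in CAKI-1. The members thus stood well above each of these background shares, but they were chosen with earlier results of these data known.

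The change was also large for most members. The median log2 fold change was 1.52 in 769-P, which is 2.87-fold, and the members ran from 0.64 to 2.47. In CAKI-1 the median was 1.23, which is 2.35-fold, and the range was 0.15 to 2.57. The medians over all genes tested were -0.02 and -0.01. A called rise of at least 2-fold was seen for 42 members in 769-P and 40 in CAKI-1, against 4.42% and 1.42% of all genes. The median member lay at the 96.0 percentile of all log2 fold changes in both lines, and the lowest at the 83.7 percentile in 769-P and the 65.0 percentile in CAKI-1. Across the 50 members the log2 fold changes of the lines had a Pearson correlation of 0.69 and a Spearman correlation of 0.64, against 0.28 and 0.34 over the 19406 genes tested in both. These are descriptions across genes, which are not independent replicates.

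The members together took 0.753% and 0.741% of the reads of the 769-P libraries with BCAA and 0.290% and 0.280% of those without. In CAKI-1 they took 0.451% and 0.384% with BCAA and 0.185% and 0.194% without. In both lines the BCAA libraries lay apart from the others. RNA was taken from whole cultures. More cells in the cycle phases that hold these transcripts and more of these transcripts per cell therefore cannot be told apart.

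**Figure D1:**
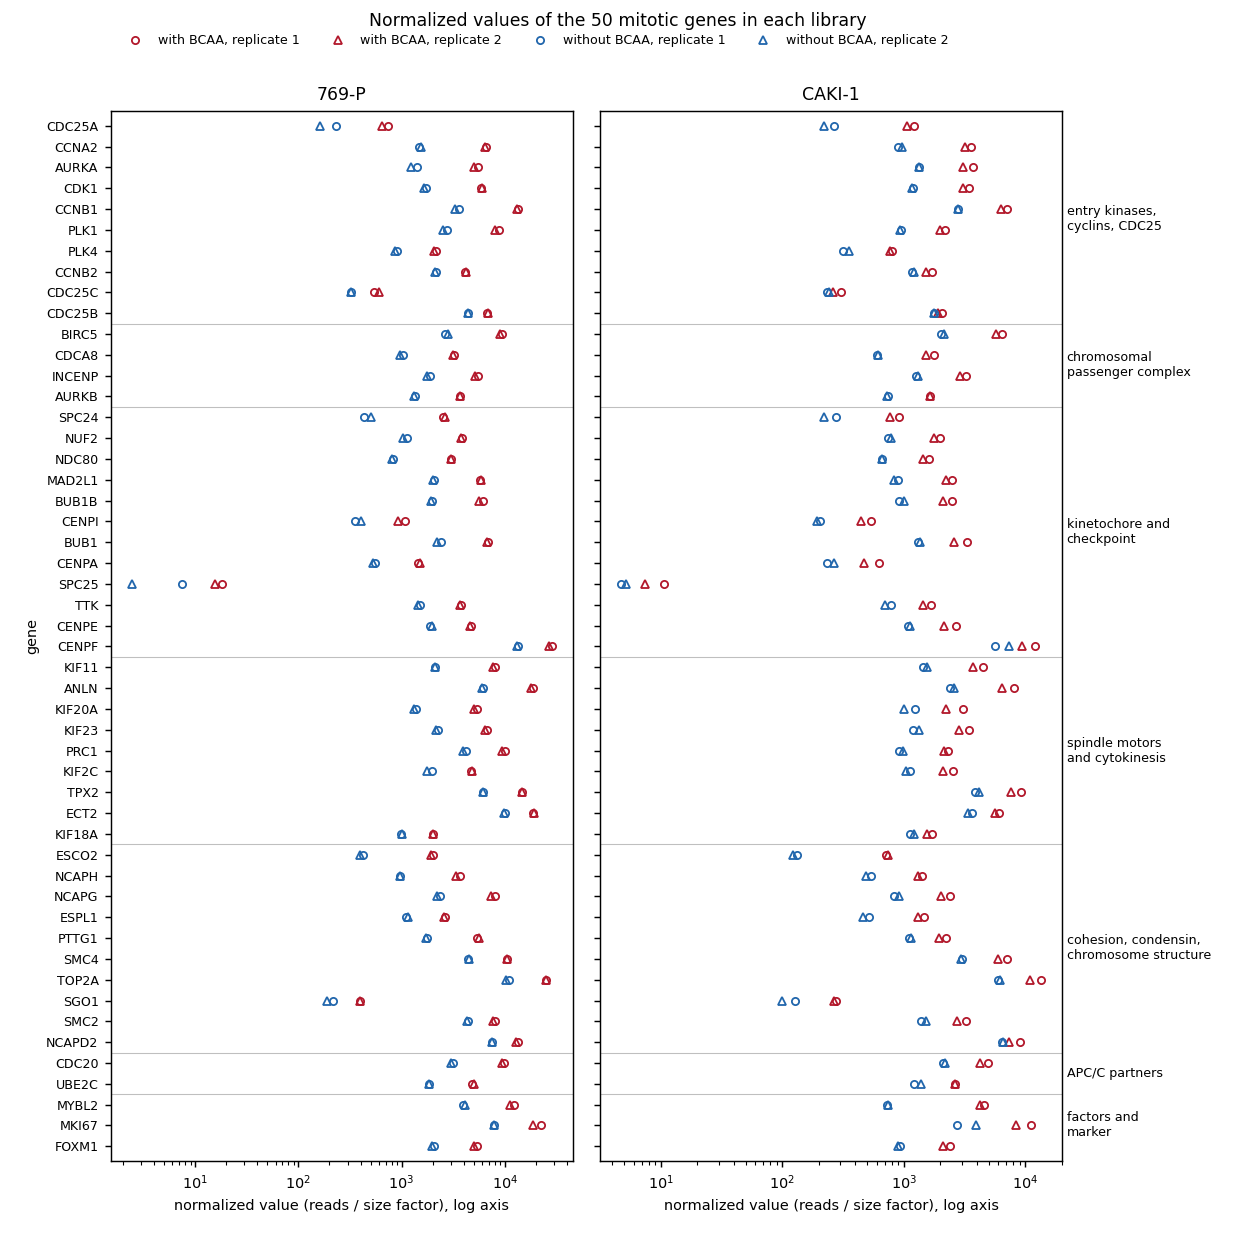
Normalized value (reads divided by the library's size factor, log axis) of each of the 50 genes in every library, 769-P on the left and CAKI-1 on the right, grouped by role; red is with BCAA, blue without, circles are replicate 1 and triangles replicate 2. In both lines every red symbol lies to the right of both blue symbols of the same gene, and the CAKI-1 red circles lie to the right of the red triangles for most genes.

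The values in each table are reads divided by the library's size factor. The tables were normalized separately, so levels are compared only within a line, and between genes only per kilobase of annotated exon. Per kilobase, CCNB1 had the highest mean value of the set with BCAA in both lines, 5192 in 769-P and 2599 in CAKI-1. It was followed by CDC20 (4742), MYBL2 (4262) and TPX2 (4105) in 769-P, and by TPX2 (2335), CDC20 (2254) and UBE2C (2060) in CAKI-1. SPC25 was lowest in both, at 9.12 and 4.94 per kilobase. The next lowest was SGO1 in both, at 103 and 70.8 per kilobase. Thus the span of more than 100-fold within a line rested on SPC25, and all other members were well read.

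Among the entry kinases, cyclins and phosphatases, all 10 rose in 769-P and 8 of 10 in CAKI-1, with medians of 1.75 and 1.24 on the log2 scale. CDK1 (ENSG00000170312), the kinase that starts mitosis, is annotated on chromosome 10 (GRCh38, 60778331 to 60794852, forward strand). Its normalized values in 769-P were 5932 and 5959 with BCAA and 1735 and 1637 without. Its log2 fold change there was 1.82 ± 0.054 (standard error; adjusted p = 3.5e-10, limma). In CAKI-1 the values were 3467 and 3090 against 1188 and 1175, a log2 fold change of 1.47 ± 0.074 (adjusted p = 5.4e-07, limma). The groups were far apart in both lines. For CCNB1 (ENSG00000134057), the B-type cyclin partner of CDK1, the values were 13437 and 13123 against 3624 and 3304 in 769-P, and 7030 and 6269 against 2819 and 2796 in CAKI-1. CCNB1 thus rose 3.84-fold in 769-P and 2.36-fold in CAKI-1.

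CCNA2, the A-type cyclin of S phase and mitotic entry, had the largest change of this group in 769-P, at 6512 and 6506 against 1478 and 1547, a 4.30-fold rise. In CAKI-1 it rose 3.63-fold, from 901 and 966 without BCAA to 3606 and 3192 with it. CDC25A, the CDC25 phosphatase that also acts at the G1/S transition, led the group in CAKI-1. Its values there were 1206 and 1071 against 267 and 221, a 4.66-fold rise (log2 2.22 ± 0.12, adjusted p = 7.2e-07, limma). In 769-P they were 739 and 646 against 231 and 161, a 3.56-fold rise (log2 1.83 ± 0.16, adjusted p = 1.9e-06).

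The other CDC25 phosphatases changed far less than CDC25A. CDC25B values were 6785 and 6894 against 4356 and 4394 in 769-P, a 1.56-fold rise (log2 0.64 ± 0.046, adjusted p = 3.4e-07, limma), the smallest of the 50 in that line. In CAKI-1 they were 2060 and 1909 against 1791 and 1789, a log2 fold change of 0.15 with a 95% confidence interval of -0.01 to 0.30 that did not pass the test (adjusted p = 0.17, limma). CDC25C, named here for its missed call, had values of 536 and 603 against 324 and 324 in 769-P. It rose there by 0.81 on the log2 scale (adjusted p = 6.8e-05, limma). In CAKI-1 its values of 307 and 260 lay just above 232 and 242, with a log2 fold change of 0.26 and an interval of -0.05 to 0.56 (adjusted p = 0.25, limma). The cyclins CCNB1 and CCNB2 also moved unequally, since CCNB2 rose 1.96-fold in 769-P and 1.36-fold in CAKI-1, from 1163 and 1207 to 1712 and 1513 in the latter. The mitotic kinases PLK1, AURKA and PLK4, the last of which drives centriole duplication, rose by between 1.26 and 1.99 on the log2 scale in 769-P and between 1.15 and 1.35 in CAKI-1.

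The chromosomal passenger complex corrects faulty attachments and guides cytokinesis. All 4 of its subunits rose in both lines, within a narrow range of 1.45 to 1.75 on the log2 scale in 769-P and 1.16 to 1.56 in CAKI-1. BIRC5 (survivin) was first in each. Its values were 9336 and 9023 against 2623 and 2824 in 769-P and 6481 and 5753 against 2016 and 2134 in CAKI-1, which are rises of 3.37-fold and 2.94-fold. CDCA8 (borealin) rose 3.20-fold and 2.71-fold. AURKB, the kinase of the complex, was last, at 2.73-fold in 769-P and 2.24-fold in CAKI-1, and INCENP lay between.

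Of the 12 kinetochore and checkpoint genes, 11 rose in each line, with medians of 1.53 in 769-P and 1.16 in CAKI-1. SPC24 (ENSG00000161888; chromosome 19, 11131520 to 11155808, reverse strand), a subunit of the microtubule-binding NDC80 complex, had the largest rise of all 50 in 769-P. Its values were 2512 and 2653 against 431 and 505, a 5.52-fold rise (log2 2.47 ± 0.086, adjusted p = 8.8e-10, limma). In CAKI-1 they were 908 and 769 against 278 and 219, a 3.38-fold rise. The partners of SPC24 in that complex moved the same way, NUF2 by 3.53-fold in 769-P and 2.45-fold in CAKI-1, and NDC80 by 3.70-fold and 2.29-fold.

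The fourth subunit of that complex, SPC25, had few reads. It is described because it is the one member without a call in either line in the main fit. Only 24 and 18 reads with BCAA and 6 and 2 without lay on it in 769-P, and 11 and 9 with and 5 and 4 without in CAKI-1. Its log2 fold changes were 1.72 (95% confidence interval 0.33 to 3.10, adjusted p = 0.051, limma) and 0.75 (-0.60 to 2.09, adjusted p = 0.46). Per kilobase of exon, SPC25 stood at 9.12 with BCAA in 769-P, whereas NDC80 stood at 838, NUF2 at 1130 and SPC24 at 910. In CAKI-1 it stood at 4.94, against 422, 557 and 295. The gene is annotated from 168834132 to 168913371 on chromosome 2 with 1841 bases of exon, none shared with another gene. What lies behind its low level was not tested.

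The rest of the kinetochore group rose within a moderate range. CENPF, a large outer kinetochore protein, was lowest of those called, with values of 28579 and 26894 against 13402 and 13245 in 769-P, a 2.08-fold rise. In CAKI-1 its values were 12090 and 9358 against 5618 and 7384, a 1.65-fold rise (adjusted p = 0.0021, limma), and both groups spread widely there. This call was lost under quantile normalization. The checkpoint genes BUB1, BUB1B, MAD2L1 and TTK rose by between 1.33 and 1.59 on the log2 scale in 769-P and between 1.06 and 1.44 in CAKI-1. The centromere proteins CENPA, CENPE and CENPI rose by between 1.26 and 1.44 in 769-P and between 1.11 and 1.29 in CAKI-1.

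All 9 spindle and cytokinesis genes rose in both lines, with medians of 1.36 and 1.22. KIF11, the kinesin that pushes spindle poles apart, had values of 8008 and 7650 against 2088 and 2105 in 769-P and 4462 and 3729 against 1453 and 1547 in CAKI-1. It rose 3.73-fold and 2.72-fold. ANLN (anillin), which scaffolds the contractile ring, rose 3.06-fold in 769-P, to 18954 and 18063 from 6100 and 5979, and 2.92-fold in CAKI-1, to 8154 and 6477 from 2397 and 2575. KIF18A, a kinesin that dampens chromosome movements, had the lowest mean of both log2 fold changes in the group, at 2.0-fold in 769-P and 1.40-fold in CAKI-1. Its CAKI-1 values of 1701 and 1566 still lay above 1126 and 1211. TPX2, KIF20A, KIF23, KIF2C, PRC1 and ECT2 lay between 0.92 and 1.95 on the log2 scale in 769-P and between 0.73 and 1.31 in CAKI-1.

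All 10 cohesion, condensin and chromosome structure genes rose in both lines. ESCO2, the acetyltransferase that establishes cohesion during S phase, had values of 2022 and 1948 against 419 and 397 in 769-P, a 4.86-fold rise (log2 2.28 ± 0.077, adjusted p = 7.5e-10, limma). In CAKI-1 they were 709 and 745 against 133 and 122, a 5.66-fold rise (log2 2.50 ± 0.12, adjusted p = 5.0e-07). At the other end, NCAPD2, a condensin I subunit, had values of 13301 and 12815 against 7517 and 7570 in 769-P, a 1.73-fold rise. In CAKI-1 its values were 8985 and 7337 against 6440 and 6520, a 1.25-fold rise (adjusted p = 0.017, limma), and this call was lost under quantile normalization and with reads thinned to equal depth.

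The subunits of condensin I, the complex that compacts mitotic chromosomes, were thus unequal. The kleisin NCAPH rose 3.66-fold and 2.65-fold and NCAPG 3.37-fold and 2.55-fold in 769-P and CAKI-1, whereas the ATPase subunits SMC2 and SMC4, which condensin II shares, rose 1.81-fold and 2.38-fold in 769-P and 2.04-fold and 2.17-fold in CAKI-1. Topoisomerase TOP2A, which untangles sister DNA, had values of 25221 and 25124 against 10943 and 10343 in 769-P and 13525 and 10856 against 6001 and 6212 in CAKI-1. It rose 2.37-fold and 1.98-fold. Securin (PTTG1), separase (ESPL1) and the cohesin protector SGO1 rose by between 0.97 and 1.65 in 769-P and between 0.90 and 1.51 in CAKI-1 on the log2 scale.

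CDC20, the activator of the anaphase-promoting complex, had values of 9901 and 9427 against 3116 and 3027 in 769-P and 4929 and 4258 against 2123 and 2181 in CAKI-1. It rose 3.14-fold and 2.13-fold. UBE2C, the ubiquitin-conjugating enzyme of that complex, rose 2.66-fold and 2.04-fold. Both genes were called in both lines.

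The transcription factors FOXM1 and MYBL2 (B-Myb) activate many of the genes above. FOXM1 values were 5396 and 5008 against 2061 and 1976 in 769-P and 2391 and 2109 against 929 and 890 in CAKI-1, rises of 2.58-fold and 2.47-fold. MYBL2 (ENSG00000101057; chromosome 20, 43667019 to 43716496, forward strand) had values of 12310 and 11363 against 3950 and 4119 in 769-P, a 2.93-fold rise. In CAKI-1 they were 4542 and 4264 against 736 and 748, a 5.93-fold rise (log2 2.57 ± 0.069, adjusted p = 1.3e-08, limma), the largest of the 50 in that line. MKI67, the antigen Ki-67, had values of 22307 and 18951 against 7941 and 7885 in 769-P and 11072 and 8391 against 2764 and 3935 in CAKI-1. It rose 2.60-fold and 2.92-fold, and its CAKI-1 libraries varied within both conditions.

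**Figure D2:**
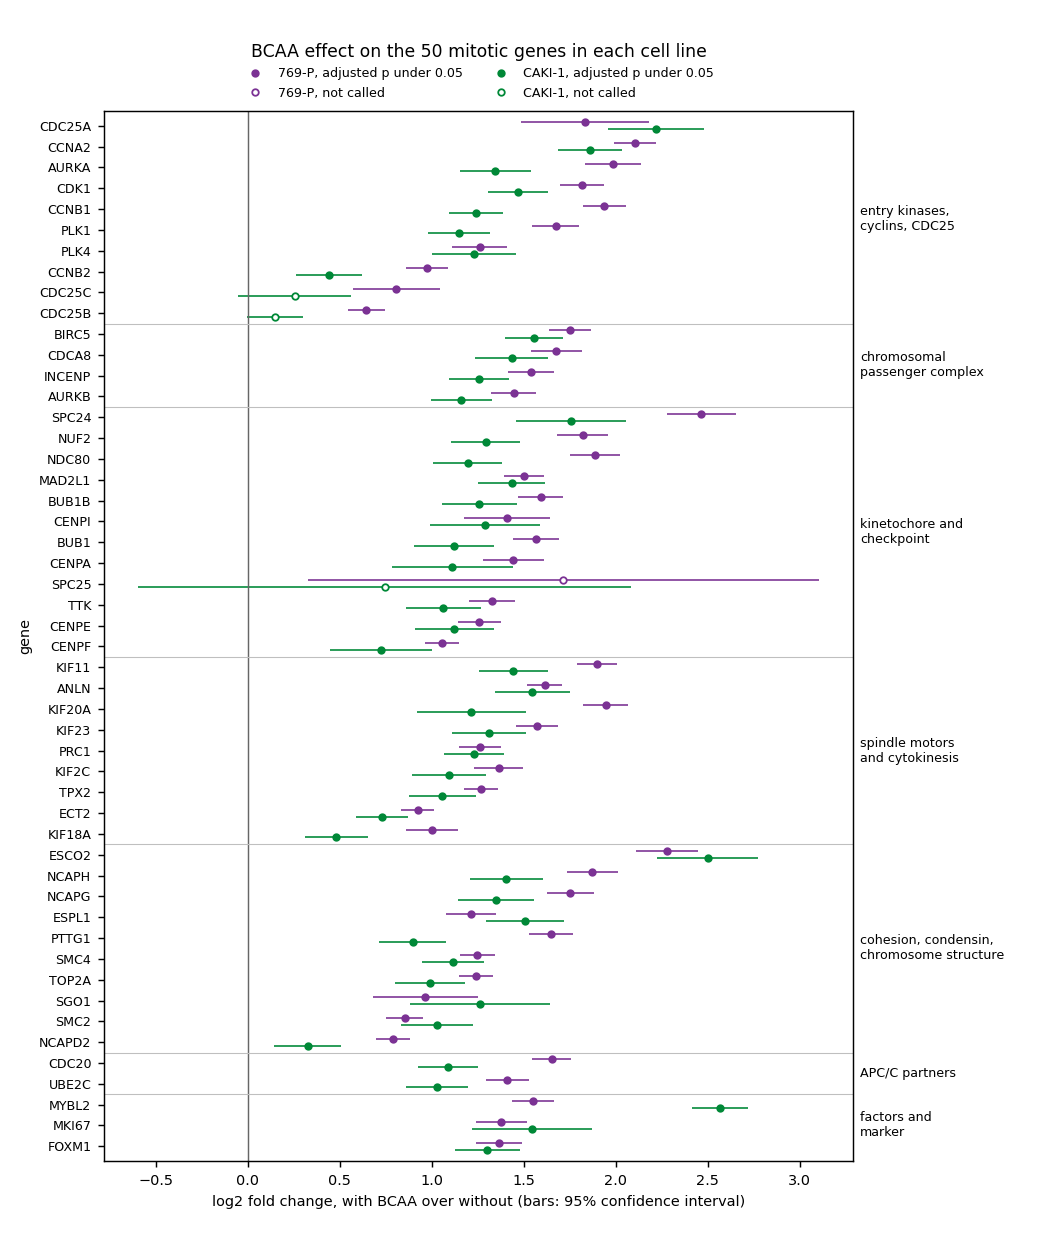
Log2 fold change with BCAA over without for each of the 50 genes in 769-P (purple) and CAKI-1 (green), grouped by role; bars are 95% confidence intervals from limma and open circles did not pass an adjusted p of 0.05. All 100 values lie above 0, SPC24 and MYBL2 reach furthest in 769-P and CAKI-1 (2.47 and 2.57), and CDC25B, CDC25C and SPC25 are the open circles.

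With 2 libraries per condition, an exact two-sided permutation test cannot give a p below 0.333, so the calls rest on the spread that limma shares between genes. In CAKI-1, no gene of 21347 and thus no member passed the adjusted p once any library was left out of the within-line fit, although 45 to 48 members still had an unadjusted p under 0.05 and all 50 stayed positive. With the spread taken from the 7 remaining libraries of both lines, 47 or 48 members were called, and with edgeR on the recovered reads 47. In 769-P, 46 to 48 members were called with a library left out. With every library thinned to 30979773 reads, 49 members were called higher in 769-P and 46 in CAKI-1. Thinning equalizes the number of reads only, and other differences between the libraries were not tested. Some members share exon sequence with other annotated genes, mostly on the opposite strand, and whether counting used strand is not given in the sources used here. The shared part was 58.4% of exon bases for PRC1, 33.1% for NCAPG, 25.6% for SMC4, 17.7% for SGO1, 15.9% for FOXM1, 12.5% for PLK1 and 10.2% for BUB1B, so the values of these genes are less certain.

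The effect of BCAA was larger in 769-P for much of the set. The difference (769-P effect minus CAKI-1 effect, interaction term in limma over 8 libraries, adjusted over 19406 genes) was called for 22 of 50 members, of which 21 were further up in 769-P and only MYBL2 further up in CAKI-1. Over all genes, 21.1% had a called difference, 10.9% further up in 769-P and 10.1% further up in CAKI-1. The median difference over the members was 0.28, and 43 of 50 were positive.

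By role, the difference was called for 7 of the 10 entry kinases, cyclins and phosphatases, and all 7 were further up in 769-P. It was 0.70 for CCNB1, 0.64 for AURKA, 0.55 for CDC25C, 0.53 for CCNB2, 0.52 for PLK1, 0.50 for CDC25B and 0.35 for CDK1 on the log2 scale. For CCNB1 the standard error was 0.088 and the adjusted p 8.4e-05 (limma). CDC25A was the one member of this group with a negative difference, of -0.39 with a 95% confidence interval of -0.87 to 0.10. Thus CDC25A did not share the difference of CDC25B and CDC25C.

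In the kinetochore group, all 12 differences were positive and 4 were called, with 0.71 for SPC24, 0.69 for NDC80, 0.53 for NUF2 and 0.44 for BUB1. The first 3 are subunits of the NDC80 complex. Among spindle genes the called differences were 0.73 for KIF20A, 0.52 for KIF18A and 0.46 for KIF11. In the cohesion and condensin group they were 0.75 for PTTG1, the largest called difference in the direction of 769-P (standard error 0.10, adjusted p = 1.4e-04, limma), and 0.47 for NCAPH, 0.47 for NCAPD2 and 0.40 for NCAPG, all in condensin I. The remaining ones were 0.56 for CDC20, 0.38 for UBE2C and 0.28 for AURKB. The called difference of AURKB was lost with reads thinned to equal depth, and that of CDC25C there and under DESeq2, quantile normalization and median centring. With 1 library left out, the called differences of AURKB, BUB1, CDC25C, CDK1, NCAPG, SPC24 and UBE2C were each lost in at least 1 case. MYBL2 stood opposite, with a difference of -1.02 (standard error 0.083, 95% confidence interval -1.19 to -0.84, adjusted p = 1.7e-06, limma). For FOXM1 the difference was 0.06 with an interval of -0.15 to 0.28, and for ESCO2 -0.22 with -0.52 to 0.08, and neither was called.

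**Figure D3:**
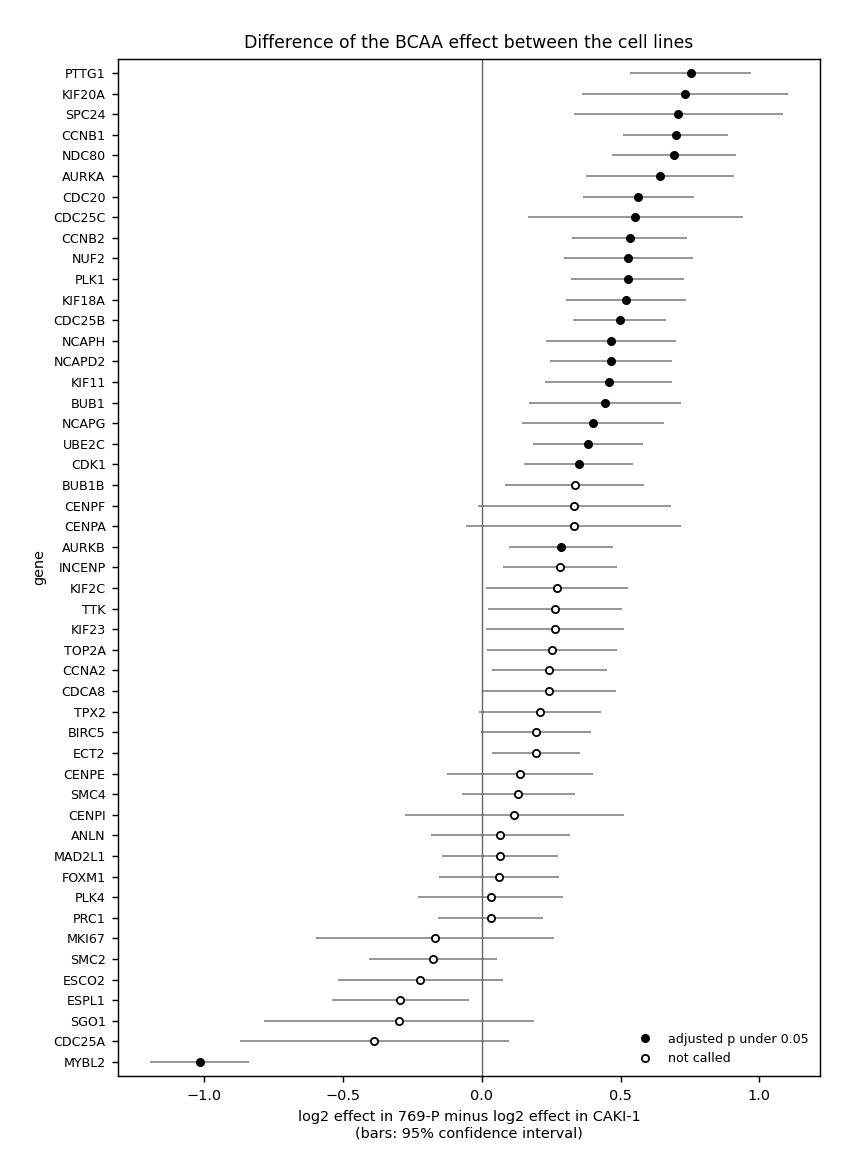
Difference of the BCAA effect, 769-P minus CAKI-1, on the log2 scale for 49 of the genes in order of size, with 95% confidence intervals; filled circles passed an adjusted p of 0.05, and SPC25 is left out because its interval runs from -0.90 to 2.85. Of the genes drawn, 42 lie to the right of 0, and MYBL2 is the one filled circle to the left.

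The size of this difference leaned on the CAKI-1 libraries with BCAA. Over the members, replicate 1 of that condition was above replicate 2 by a median of 0.21 on the log2 scale, whereas the corresponding median in 769-P was 0.05. Without CAKI-1 BCAA replicate 1, 36 members were further up in 769-P and 1 in CAKI-1, and the median difference was 0.40. Without CAKI-1 BCAA replicate 2, 17 and 3 were called, and the median was 0.16. MYBL2 was further up in CAKI-1 in both cases.

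Related mitotic genes outside the set were read from a list of 93 genes by role, of which 91 were in both tables. In 769-P, 69 of 92 tested were higher with BCAA and 5 lower. In CAKI-1, 57 of 91 were higher and 2 lower. The shares of all genes called higher were 20.3% and 10.8%, and 34.1% and 18.7% among those whose mean reached 100. The medians were 0.58 and 0.56 on the log2 scale, well below those of the 50 genes. The roles differed widely. Of the spindle and cytokinesis genes 16 of 18 tested rose in 769-P and 16 of 17 in CAKI-1, with medians of 1.26 and 1.03. KIF18B rose by 1.60 and 1.78, and RACGAP1, of the centralspindlin complex, by 1.55 and 1.07. The spindle pole protein NUMA1 instead fell in 769-P by 0.31.

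Of 12 inner kinetochore genes, 10 rose in 769-P and 9 in CAKI-1, led by CENPM (1.91 and 1.46) and CENPW (1.92 and 1.23). CENPT (0.25 and 0.26) and CENPP (0.08 and 0.11) were not called in either line. Of 11 outer kinetochore and checkpoint genes tested, 10 and 7 rose, led by ZWINT (1.82 and 1.78) and the checkpoint scaffold KNL1 (1.47 and 1.66), whereas MAD1L1 (-0.09 and 0.12) was not called. Of 11 entry regulators, 10 and 9 rose. Among them, the CDK1-inhibiting kinase PKMYT1 rose by 0.73 and 1.59, a difference of -0.86 (adjusted p = 0.0010, limma), and WEE1, which also inhibits CDK1, rose by 0.56 in 769-P and had 0.18 in CAKI-1 (adjusted p = 0.12). All 3 condensin II genes rose in both lines, NCAPG2 by 1.02 and 1.08.

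The lists for cohesin and for the anaphase-promoting complex had lower medians. Of 13 genes for cohesin, its loaders and its regulators, 6 rose and 1 fell in 769-P, and 5 rose and 1 fell in CAKI-1, with medians of -0.01 and 0.12. The loader NIPBL had log2 fold changes of -0.07 and 0.02, and STAG1 -0.01 and 0.22, with no call, whereas the ATPase subunit SMC1A rose by 0.76 and 0.84. CDCA5 (sororin), which holds cohesin on replicated DNA, rose by 1.36 and 1.63, and SGO2, of the same gene family as SGO1, by 1.29 and 1.09. Of 17 anaphase-promoting complex genes, 10 rose and 2 fell in 769-P and 3 rose and 1 fell in CAKI-1, where the share called higher was close to that of all genes whose mean reached 100 (18.7%). The largest of these rises were not of subunits but of the inhibitor FBXO5 (1.18 and 1.08) and of the ubiquitin-chain enzyme UBE2S (0.93 and 0.88). The scaffold ANAPC1 had 0.00 and 0.05, with no call. The ANAPC16 subunit fell by 0.43 in 769-P and by 0.27 in CAKI-1.

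**Figure D4:**
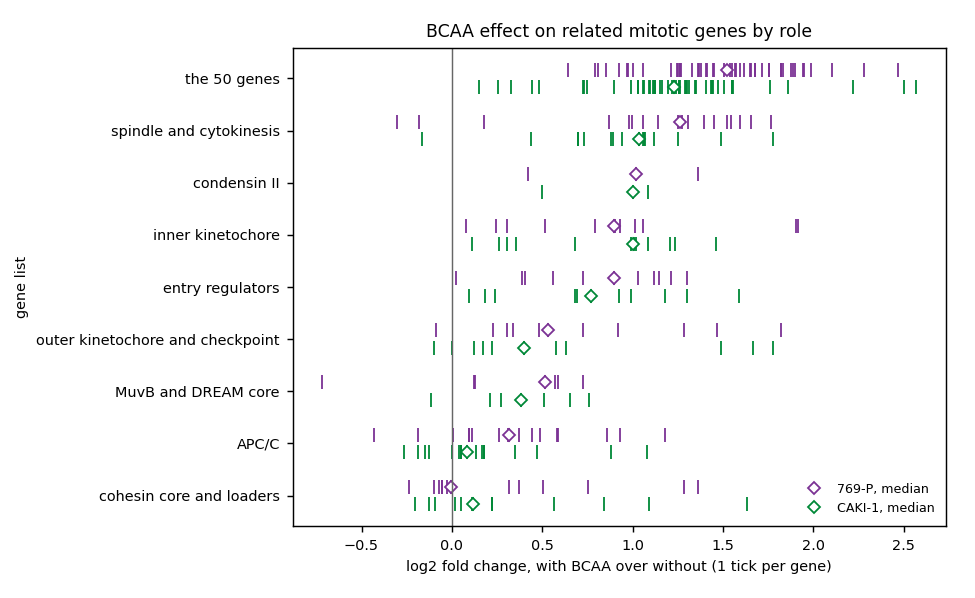
Log2 fold change with BCAA over without for the 50 genes and for related mitotic genes by role, 1 tick per gene and an open diamond at the median, in 769-P (purple) and CAKI-1 (green). The medians of the 50 genes lie at 1.52 and 1.23, those of the related spindle and cytokinesis genes at 1.26 and 1.03, and those of the anaphase-promoting complex (APC/C) and cohesin lists between -0.01 and 0.31.

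The genes for the MuvB complex and its DREAM partners, which bind CHR promoters, were also listed. In 769-P 4 of 7 rose and 1 fell, and in CAKI-1 5 of 7 rose, with medians of 0.52 and 0.38. LIN9 rose by 0.57 and 0.38 and TFDP1 by 0.72 and 0.76. LIN54, the subunit that contacts the CHR, had 0.12 in 769-P (adjusted p = 0.18) and rose by 0.65 in CAKI-1. All these rises were below that of MYBL2 in the same line.

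The promoter matches were set beside the changes. The 31 members with a CHR had median log2 fold changes of 1.44 in 769-P and 1.20 in CAKI-1, and the 12 without had 1.74 and 1.27. Among members with a matched promoter, a match to the searched CHR letters did not go with a larger change. The members were chosen with earlier results known and nearly all rose. This split therefore cannot show how CHR matches relate to the change outside the set. Other forms of the element were not searched, so a gene without a match may still hold one. The ranges overlapped widely, at 0.64 to 1.90 with a CHR and 1.26 to 2.47 without in 769-P, and at 0.15 to 1.55 and 0.90 to 2.57 in CAKI-1. Among the related genes, the 38 with a CHR had medians of 1.04 and 0.91, and 34 and 31 of them were called higher. The 40 without had medians of 0.36 and 0.19, and 23 and 15 were called higher. These values are descriptions, with no test.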

How the data were processed

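RNA-seq values of 769-P and CAKI-1 cells with or without BCAA for 16 hours were taken from 1 table per cell line, 8 libraries in all, grouped by the cell line and treatment in their labels. The authors deposited a signal per gene, which is reads divided by a size factor per library. All values were whole multiples of 1 read within a relative tolerance of 1e-06, so reads were recovered, and the tables list genes with at least 2 reads over their 4 libraries. The submitters' processing notes name Trim Galore, TopHat2 2.1.0, SAMtools 1.3.1, HTSeq 0.6.0, DESeq2, DESeq and hg38, without role or order. Neither the strand setting of the counting nor the test is given in the sources used here.

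Identifiers were matched through GENCODE 29 (GRCh38) for 25032 of 25431 genes in 769-P and 23881 of 24190 in CAKI-1. Per-kilobase values use the merged exon length there. The main test was limma 3.58.1 in R 4.3.3 (lmFit, eBayes with trend) on log2(value + 1) for genes with a mean of at least 1, within each line, with Benjamini-Hochberg adjustment at 0.05 over all genes tested. Fold changes are on the log2(value + 1) scale, which understates the change of low genes. The difference between lines was the interaction term over 8 libraries. edgeR 4.0.16 and DESeq2 1.42.0 on recovered reads were alternatives, together with other pseudocounts, filters, scalings, thresholds, the replicate block and each library left out. The fits were tested on simulated data first. Depth limits precision mainly for SPC25, and counts cover counting error only.

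The members, role groups and related list were chosen with earlier results of these data known, and no set test was run on them. Named genes were CDK1, CCNB1, FOXM1, MKI67 and TOP2A, in each role group the 2 members with the largest and the 1 with the lowest mean log2 fold change (all in groups under 4), and members whose effect differed between the lines. SPC25 and the related genes given as examples were chosen after their values were seen.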

Additional observations from a re-analysis of the deposited data

Results flagged for a closer look

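The effect of BCAA differed between the cell lines for 22 of the 50 mitotic genes by the interaction term in limma (769-P effect minus CAKI-1 effect, log2 scale, adjusted p under 0.05 over 19406 genes). For 21 of them the effect was further up in 769-P. The share of all genes with a called difference was 21.1%, with 10.9% further up in 769-P and 10.1% in CAKI-1. Among kinases, cyclins and phosphatases, the difference was 0.70 for CCNB1, 0.64 for AURKA, 0.55 for CDC25C, 0.53 for CCNB2, 0.52 for PLK1, 0.50 for CDC25B, 0.35 for CDK1 and 0.28 for AURKB. Among kinetochore and checkpoint genes, it was 0.71 for SPC24, 0.69 for NDC80, 0.53 for NUF2 and 0.44 for BUB1. The spindle motors KIF20A, KIF18A and KIF11 had 0.73, 0.52 and 0.46. PTTG1 (securin) had 0.75, and the condensin I subunits NCAPH, NCAPD2 and NCAPG had 0.47, 0.47 and 0.40. CDC20 and UBE2C, which act with the anaphase-promoting complex, had 0.56 and 0.38. MYBL2 alone was further up in CAKI-1, at -1.02. In each of these genes both BCAA libraries lay above both libraries without in each line, although CDC25B and CDC25C were not called in CAKI-1. That order was seen for 33.6% of all genes in 769-P and 28.9% in CAKI-1. With CAKI-1 BCAA replicate 1 left out, 37 differences were called, and with replicate 2 left out, 20.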

How the results depend on the processing

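No member's effect reversed under any alternative, and no member was called lower in either line. In 769-P, where 49 members were higher, the count stayed between 46 and 50, and outside left-out libraries the CAKI-1 count of 47 stayed between 44, with a minimum change of 1.5-fold, and 47. The median log2 fold change in 769-P (1.52) was 1.47 with a pseudocount of 4, 1.46 under quantile normalization, 1.48 under median centring, 1.55 with edgeR without a filter and 1.48 with reads thinned to 30979773 per library, an alternative chosen after seeing the data. Leaving out 1 library moved it between 1.49 and 1.56, moved the CAKI-1 median (1.23) between 1.14 and 1.31, and moved the number of related genes higher in 769-P (69) between 41 and 51 in the same fit and up to 69 with the spread of 7 libraries or edgeR. In CAKI-1 the within-line limma fit called no gene with any 1 library left out, so the counts ran from 0 to 48 for the members and from 0 to 60 for the related genes. The upper ends come from 2 alternatives chosen after seeing the data, the spread of the 7 remaining libraries and edgeR, which treat the lone library as varying like the others. A minimum change of 1.5-fold lowered the related genes called higher in 769-P to 45 and the differences between lines from 22 to 7, by its own construction. The number of differences ran from 16 to 37 with 1 library left out, and was highest without CAKI-1 BCAA replicate 1. The cause was not tested. SPC25 was called in 769-P with a pseudocount of 4, a mean of at least 10, the spread of all 8 libraries or the replicate block. Some differences were gained under alternatives. Examples are those of BUB1B and INCENP under edgeR and DESeq2, and that of ECT2 under quantile normalization. With a pseudocount of 4 or a mean of at least 10, 23 members were called further up in 769-P, against 21 in the main fit. Quantile normalization and median centring moved the median of all genes by at most 0.05.

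The replicate numbers in the labels showed no shared effect. Deviations of same-numbered libraries had correlations of -0.09 in 769-P (11855 genes with a mean of at least 100) and 0.06 in CAKI-1 (11720 genes). These values cannot tell whether same-numbered libraries were prepared together. With the replicate block, 50 members were higher in 769-P and 47 in CAKI-1, and 20 differed between the lines. The block ended the calls of the differences of AURKB (adjusted p = 0.073) and CDC25C (adjusted p = 0.072).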
